A study of Mus musculus with 8 samples.

Results

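Collagens are triple-helical proteins of the extracellular matrix, and each collagen gene encodes 1 of the chains of a helix. The family was taken as every gene whose symbol in the probe-to-gene table reads Col, a number, a and a number. This gave 41 of 19057 genes, on 91 probes, and each gene was represented by its brightest probe over the 8 arrays. They fall into 11 fibrillar chains, 9 network chains, 7 fibril-associated chains and 14 others. Of 44 collagen genes in the reference gene table, those without a named probe are not analysed here.

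The study asked how PDGF receptors in the epicardium, the outer cell layer of the heart, affect gene expression. RNA was measured on 8 Illumina bead arrays, from mouse embryos of a mixed C57 background at E12.5. The 2 heart arrays held hearts in which both PDGF receptors, Pdgfra and Pdgfrb, were knocked out in the epicardium, and wild type control hearts, both without the conotruncal region. The 6 arrays of epicardial cultures held an untreated receptor knockout culture, a wild type control culture labelled as vehicle-treated, wild type cultures given 20 ng/ml PDGF-BB for 12 h or for 24 h, a wild type culture given 20 ng/ml PDGF-BB, 10 ng/ml hTGFb1 and 25 ng/ml bFGF over the last 2 days (the 3-factor culture), and another wild type culture that had vehicle over the same days (the vehicle culture). Cells grew out of the hearts for 3 days, and the cultures were kept 2 more days without the hearts. PDGF-BB is a ligand of both receptors, hTGFb1 is transforming growth factor beta 1, and bFGF is basic fibroblast growth factor. The promoter that drove the tissue-specific knockout was not named in the labels. Every array carried RNA pooled from a minimum of 3 hearts or cultures, and each group had 1 array, so nothing was replicated and a difference between 2 arrays has no test.

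Fibrillar chains (types I, II, III, V, XI, XXIV and XXVII) assemble into the banded fibrils that give tissue its tensile strength. Network chains form sheets: type IV collagen is the scaffold of basement membranes, on which the epicardial epithelium sits, and type VIII forms a lattice best known beneath endothelia. Fibril-associated chains bind to the surface of fibrils. Among the others, type VI forms beaded filaments, type VII forms the anchoring fibrils that tie an epithelium to its stroma, types XV and XVIII sit in basement membranes, and types XVII and XXIII span the cell membrane. When epicardial cells undergo epithelial to mesenchymal transition they leave the basement membrane, and their descendants include the cardiac fibroblasts that lay down interstitial collagen.

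Type IV chains are encoded in pairs of genes that lie head to head on a chromosome. Of these, 2 pairs are shown for their part in the results below, Col4a1 with Col4a2 as genes high in every culture, and Col4a3 with Col4a4 as genes detected in the 3-factor culture alone. The RefSeq promoter windows (GRCm38.p6, 250 bases before to 50 after an annotated start, on the gene's own strand) show how closely the partners are placed. For Col4a1 and Col4a4 the start used lies inside the gene model, which ends at chr8:11312889 and chr1:82587034. The numbers of marked bases depend on the start used. For Col4a1 and Col4a2, capitals mark the 78 bases that both windows hold, read on opposite strands. For Col4a4, capitals mark the 179 bases that lie inside the gene model of its neighbour Col4a3, for which no window was used here. The windows are Col4a1 at chr8:11312777-11313076 on the minus strand, Col4a2 at chr8:11312555-11312854 on the plus strand and Col4a4 at chr1:82586800-82587099 on the minus strand.
Col4a1: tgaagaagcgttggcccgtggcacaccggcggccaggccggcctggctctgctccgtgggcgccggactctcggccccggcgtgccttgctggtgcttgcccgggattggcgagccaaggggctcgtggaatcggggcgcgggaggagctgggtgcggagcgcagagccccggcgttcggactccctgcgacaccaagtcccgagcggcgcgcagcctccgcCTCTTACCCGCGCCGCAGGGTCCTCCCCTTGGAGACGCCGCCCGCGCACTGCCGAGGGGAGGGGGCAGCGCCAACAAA
Col4a2: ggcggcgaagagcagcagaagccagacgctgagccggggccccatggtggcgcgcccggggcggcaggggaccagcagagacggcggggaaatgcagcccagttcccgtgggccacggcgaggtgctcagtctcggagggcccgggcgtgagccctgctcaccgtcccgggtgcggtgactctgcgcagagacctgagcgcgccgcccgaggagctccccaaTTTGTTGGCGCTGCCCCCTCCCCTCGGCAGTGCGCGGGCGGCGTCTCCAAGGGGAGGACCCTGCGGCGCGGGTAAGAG
Col4a4: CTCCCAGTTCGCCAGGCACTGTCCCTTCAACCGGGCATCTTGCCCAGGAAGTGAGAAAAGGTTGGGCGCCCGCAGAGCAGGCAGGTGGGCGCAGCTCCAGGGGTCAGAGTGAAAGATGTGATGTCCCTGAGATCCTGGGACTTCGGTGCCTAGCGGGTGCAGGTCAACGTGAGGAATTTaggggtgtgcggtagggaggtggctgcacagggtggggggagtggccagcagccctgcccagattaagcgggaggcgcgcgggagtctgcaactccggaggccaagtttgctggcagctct
The letters CCAAT, searched on both strands, are in the windows of Col4a1 and Col4a2 and not in that of Col4a4. They are in 37.4% of all 32851 promoter windows of this length and in 13 of the 36 windows of 33 collagen genes. The letters GGGCGG, matches of which can overlap those of CCAAT, are in the windows of Col4a1 and Col4a2, but not in that of Col4a4, in 35.7% of all windows and in 23 of the 36. These are matches of letters and nothing more.

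A level is the log2 of an intensity after background correction and normalization, and a gene counts as detected on an array where its detection p-value is under 0.01. Between 14557 and 16661 of 45281 probes were detected per array, and between 17 and 24 collagens. In the hearts Pdgfra had a level of 5.80 in the knockout and 7.43 in the control, and in the cultures 10.49 in the knockout and 11.61 in the control. Pdgfrb was not detected in the knockout hearts and stood at 5.62 in the control hearts, with 5.85 in the knockout culture and 6.12 in the control culture. Among 6 cardiomyocyte genes all were detected in both hearts and between 1 and 4 in the cultures. The epicardial genes Upk3b, Upk1b and Tcf21 were detected on all 8 arrays. Their levels were higher in each culture than in the hearts except Upk3b in the 3-factor culture. Of the other epicardial genes with a probe, Aldh1a2 was also detected on all 8 arrays. It was at 6.90 and 6.95 in the hearts and between 7.32 and 8.11 in the cultures. Tbx18 was detected in the culture with PDGF-BB for 24 h alone. Postn, a marker of activated fibroblasts, was detected on no array. Hearts, vehicle culture and 3-factor culture form an array set with a lower highest intensity (25863 to 27914) than the other 4 cultures (45002 to 53266). The comparison of each knockout or ligand array with its own control stays within a set. The sets are crossed between the untreated cultures, where the other untreated culture is used, where the control culture is set against hearts, and in limma over the 6 cultures.

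Of the 41 collagens, 29 were detected on at least 1 array: 10 of 11 fibrillar, 8 of 9 network, 3 of 7 fibril-associated and 8 of 14 others. Detected on all 8 arrays were 12 of them. In the hearts alone 2 were detected, Col2a1, the fibrillar chain best known from cartilage and also made in embryonic heart valves, and Col23a1, a membrane-spanning chain. In the cultures alone 11 were detected. Of all 19057 genes, 10719 were detected on at least 1 array and 10249 in at least 1 culture. Detection in the hearts alone or in the cultures alone was not counted over all genes. The cultures also had 6 arrays and the hearts 2, which favours detection in the cultures alone for any gene. The 12 collagens detected on no array were Col5a3, Col6a4, Col6a5, Col6a6, Col9a1, Col9a3, Col10a1, Col13a1, Col19a1, Col22a1, Col25a1 and Col28a1. In the plot of levels by array the hearts stand apart from the cultures for most members, and among the cultures the 3-factor culture differs most visibly.

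**Figure D1:**
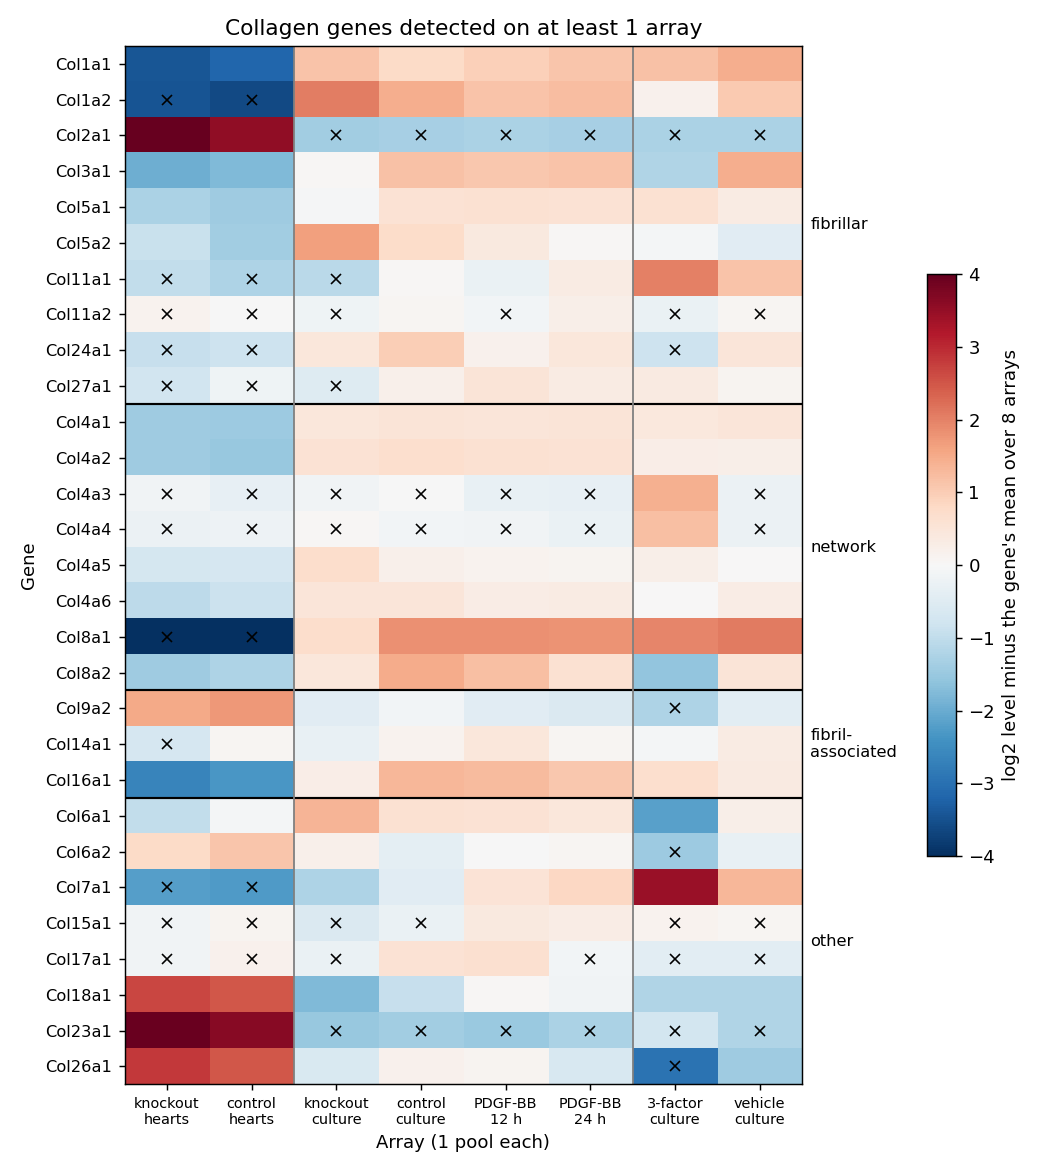
Heat map of the 29 detected collagen genes (rows, by class) on the 8 arrays (columns), with colour for the log2 level minus the gene's own mean over the 8 arrays, capped at 4 on either side, and a cross where the gene was not detected. Col2a1 and Col23a1 are crossed in all 6 cultures, and Col4a3 and Col4a4 are detected in the 3-factor culture alone.

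The vehicle culture had higher levels of the type I chains, Col3a1, Col8a1, Col4a1 and Col4a2 than the control hearts, and lower levels of Col2a1, Col18a1 and Col23a1. A gene was measured in a comparison where it was detected on at least 1 of the 2 arrays, and it is said to have risen or fallen where the levels were 1 or more apart, with detection on the brighter of the arrays. In the vehicle culture against the control hearts, 13 of 24 measured collagens rose and 6 fell, where 16.1% of all 9656 measured genes rose and 15% fell. The median difference was 1.24 for the collagens (1.05 with genes undetected on the dimmer array set at their bound) and 0.04 for all measured genes. By class, 6 of 9 fibrillar chains rose and 1 fell, 5 of 6 network chains rose and none fell, 1 of 3 fibril-associated chains rose and 1 fell, and among the others 1 of 6 rose and 4 fell. In such pooled RNA, fewer cells of a type and less RNA per cell cannot be told apart.

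The chains of type I collagen, the main fibrillar collagen, rose together. Col1a1 had a level of 13.63 in the vehicle culture and 9.03 in the control hearts, a difference of 4.60. The other arrays had 8.77 in the knockout hearts, 13.33 in the knockout culture, 12.96 in the control culture, 13.14 and 13.28 with PDGF-BB for 12 h and 24 h, and 13.38 with the 3 factors, so no culture overlapped with a heart. Its partner Col1a2 was not detected in either heart and was at 9.51 in the vehicle culture, at least 16.4-fold higher than in the control hearts. Across the remaining cultures Col1a2 was at 10.53 in the knockout, 9.94 in the control, 9.60 and 9.70 with PDGF-BB for 12 h and 24 h, and 8.64 with the 3 factors. Both chains were high in every culture, with a range over the 6 cultures of 0.67 for Col1a1 and 1.88 for Col1a2.

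Other fibrillar chains followed in part. Col3a1, the type III chain of compliant tissues, was at 9.47 in the vehicle culture and 6.25 in the control hearts (3.22). Col5a1, a type V chain that sets fibril diameter, was at 12.54 against 10.80 in the control hearts (1.75). It was at 10.96 in the knockout hearts, 12.18 in the knockout culture, 12.79 in the control culture, 12.83 and 12.78 with PDGF-BB for 12 h and 24 h and 12.83 with the 3 factors, so all cultures lay above both hearts. Col11a1, a minor fibril chain of cartilage and other tissues, was at least 3.08-fold higher in the vehicle culture, and Col24a1 at least 1.23-fold. Col2a1 went the other way: it was not detected in any culture and was at 10.06 in the knockout hearts and 9.36 in the control hearts, so that it was at least 15.5-fold lower in the vehicle culture. Comp and Hapln1, the other cartilage and valve matrix genes of the marker list detected in both hearts beside Sox9, were likewise detected in no culture.

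Among the network chains Col8a1 had the largest difference of any measured collagen in this comparison. It was not detected in either heart, was at 12.29 in the vehicle culture, and so was at least 112-fold higher than in the control hearts. Its partner Col8a2 was at 7.86 in the vehicle culture and 6.10 in the control hearts (1.76). Col4a1 and Col4a2, the chains of the common basement membrane collagen, were detected in both hearts and in every culture. Col4a1 was at 14.18 in the vehicle culture against 12.27 in the control hearts (1.91). Col4a2 was at 13.81 against 12.06 in the control hearts (1.76). In the cultures the intensities of these chains reached 42.5% to 57.7% of the highest intensity on their array, so the scale leaves limited room above them. Col4a6 rose too, with 7.85 in the vehicle culture and 6.68 in the control hearts (1.18). Col4a5 did not pass the rule, at 10.50 in the vehicle culture and 9.80 in the control hearts (0.69).

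The collagens that fell in culture came mostly from the remaining classes. Col18a1, a basement membrane collagen whose end fragment is endostatin, was at 9.15 in the vehicle culture and 12.84 in the control hearts (-3.69). The knockout hearts had 13.02. Its further probes also fell, by 3.66 and by 1.53. Col23a1 was at 9.82 in the knockout hearts and 9.52 in the control hearts, was detected in no culture, and was at least 17.2-fold lower in the vehicle culture. Col9a2, a fibril-associated chain of cartilage, was at 5.71 in the vehicle culture and 7.85 in the control hearts (-2.14). Col6a2 differed by -1.42, with 5.75 in the vehicle culture and 7.17 in the control hearts, whereas Col6a1 did not pass the rule (9.35 against 9.03 in the control hearts). Col26a1 was at 6.09 in the vehicle culture and 10.01 in the control hearts (-3.93), and its other detected probe differed by 0.10. Col16a1, a fibril-associated chain, rose: it was at 11.20 in the vehicle culture and 8.51 in the control hearts (2.69). Col7a1, the anchoring fibril chain, was at 8.34 in the vehicle culture, was not detected in hearts, and was at least 7.28-fold higher.

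Cell type markers moved with this comparison. Over 6 endothelial genes the summed linear level was 628 in the vehicle culture and 9406 in the control hearts, and over 5 erythroid genes 14092 in the vehicle culture and 65744 in the control hearts. The cardiomyocyte sum was 4220 in the vehicle culture and 65912 in the control hearts. In the vehicle culture most of that sum was Myl7 (11.98, against 12.67 in the control hearts), with Myh6, Myh7 and Tnni3 undetected. The endothelial sum there was mostly Tek (8.91, against 11.18 in the control hearts), the only gene of that list detected in the vehicle culture. Higher in culture were the epicardial sum (14648 in the vehicle culture and 3520 in the control hearts), the fibroblast and mesenchymal sum (9355 in the vehicle culture and 2898 in the control hearts) and the macrophage sum (9684 in the vehicle culture and 1033 in the control hearts). The part of cell makeup in the collagen differences was not tested. With the control culture in place of the vehicle culture, the plot against hearts shows the same direction for each of the 24 genes, at different sizes for Col7a1 (1.80), Col26a1 (-2.31) and Col5a2 (2.10).

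**Figure D2:**
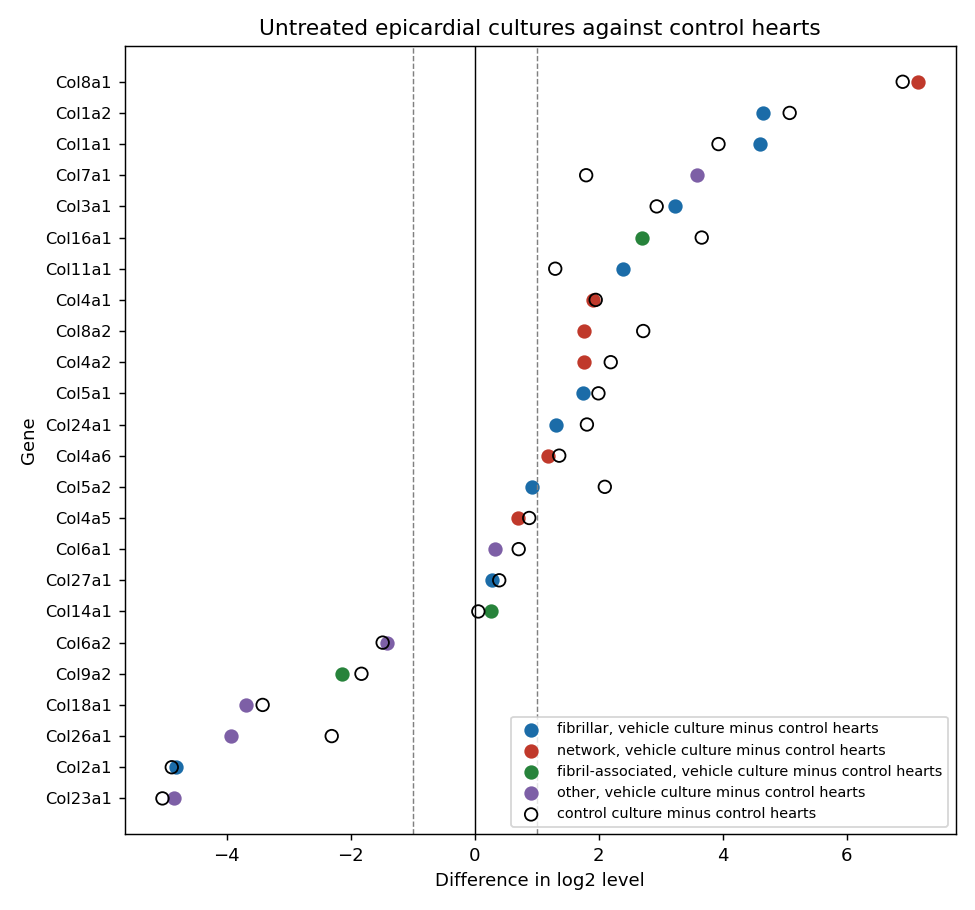
Difference in log2 level (x axis) of the 24 measured collagens (y axis), filled by class for the vehicle culture minus the control hearts and open for the control culture minus the control hearts, with dashed lines at 1 and -1. Filled points run from -4.85 for Col23a1 to 7.14 for Col8a1, and the open points lie on the same side of 0 in every row.

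The untreated wild type cultures are the only arrays that resemble replicates, and the distance between them gives a scale for what follows. They differ in array set, and the control culture's label names a heart as its source. In the vehicle culture against the control culture, 2 of 24 measured collagens rose and 3 fell, with 3.37% of all 9760 measured genes rising and 7.34% falling. Col7a1 was at 8.34 in the vehicle culture and 6.55 in the control culture, a difference of 1.79. Col11a1 was at 7.10 against 6.0 in the control culture (1.10). Both were higher in the vehicle culture without any ligand. Col5a2, a type V chain, was at 7.06 in the vehicle culture and 8.23 in the control culture (-1.17). Col26a1 was at 6.09 against 7.71 in the control culture (-1.62), with 0.61 for another probe. Col17a1, a membrane-spanning chain of hemidesmosomes, was not detected in the vehicle culture and was at 5.82 in the control culture, at least 1.32-fold lower. Col16a1 (-0.97) and Col8a2 (-0.96) came close to the rule. The median was -0.22 for the collagens and 0.01 for all measured genes, and the summed macrophage level was 9684 in the vehicle culture and 14765 in the control culture. The erythroid sum was 14092 in the vehicle culture and 915 in the control culture, the fibroblast and mesenchymal sum 9355 in the vehicle culture and 16867 in the control culture, and the epicardial sum 14648 in the vehicle culture and 23316 in the control culture. The part of these cell types was not tested.

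In the hearts, with the receptors knocked out in the epicardium, no collagen passed the rule. These arrays held RNA of hearts and not of the epicardium alone. In the control hearts the epicardial sum was 3520 and the cardiomyocyte sum 65912. A difference confined to the epicardium could therefore go unseen here. Of 18 measured collagens 0 rose and 0 fell, where 0.202% of all 8905 measured genes rose and 0.438% fell, so few genes of any kind passed. The median difference was -0.11 for the collagens and -0.0002 for all measured genes. Col6a1 was at 8.13 in the knockout hearts and 9.03 in the control hearts (-0.90, with -0.40 for another probe). Col14a1, a fibril-associated chain, was at 5.59 and below detection in the knockout hearts, against 6.33 in the control hearts (-0.74, with -0.19 for another probe). Both lay below the rule of size. Col2a1 was at 10.06 in the knockout hearts and 9.36 in the control hearts (0.70), and its other probes differed by 0.73 and 0.66. Col5a2 was at 6.61 against 6.13 in the control hearts (0.48). Its partner Col5a1 was at 10.96 against 10.80 in the control hearts (0.17), so the type V chains were both slightly higher in the knockout hearts.
The remaining fibrillar and network chains differed little between the hearts. Col1a1 differed by -0.26, and Col3a1, at 6.06 in the knockout hearts, by -0.19. Col4a1 was at 12.29 in the knockout hearts (0.02) and Col4a2 at 12.14 there (0.08). The basement membrane chains were thus level between the hearts, and Col8a2 (5.91 in the knockout hearts, -0.19), Col16a1 (8.20, -0.32) and Col9a2 (7.64, -0.21) lay slightly lower. Col4a6 was at 6.48 in the knockout hearts (-0.19), Col6a2 at 6.82 (-0.35) and Col26a1 at 10.35 (0.33). Cardiomyocyte genes summed to 74710 in the knockout hearts and 65912 in the control hearts. Most of that difference was Nppa (14.77 in the knockout hearts and 14.34 in the control hearts). Myh7 and Actc1 were also higher in the knockout hearts, and Myh6, Myl7 and Tnni3 were lower. Fibroblast and mesenchymal genes summed to 2236 in the knockout hearts and 2898 in the control hearts. The fibroblast and mesenchymal list includes the deleted gene Pdgfra (5.80 in the knockout hearts and 7.43 in the control hearts). The deletion itself thus enters that sum. The part of these cell types in the collagen values was not tested.

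The knockout culture had lower levels of 5 of 24 measured collagens than the control culture, and 0 rose. Across all 9765 measured genes 2.29% fell and 1.89% rose. The collagens that fell belong to 3 classes: the fibrillar chains Col3a1 and Col11a1, the network chains Col8a1 and Col8a2, and the fibril-associated chain Col16a1. The median was -0.48 for the collagens (-0.40 with bounds) against 0.01 for all measured genes. Below 0 lay 18 of the 24 collagens and 4810 of the 9765 measured genes. Against the vehicle culture the median was -0.06 for the collagens and 0.0004 for all measured genes. The lower collagen median therefore rests on which untreated culture is used. The type VIII chains moved together. Col8a1 was at 10.92 in the knockout culture and 12.04 in the control culture (-1.13), and its other probe fell by 1.39. Col8a2 was at 7.78 against 8.81 in the control culture (-1.03), with -0.68 for another probe. Among the cultures the knockout culture had the lowest level of Col8a1. Col16a1 was at 11.13 in the knockout culture and 12.17 in the control culture (-1.05). Col11a1 was not detected in the knockout culture and was at 6.0 in the control culture, at least 1.68-fold lower. Col3a1 was at 8.04 against 9.18 in the control culture (-1.14), but its other detected probe differed by 0.39 in the opposite direction.

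Not all fibrillar chains lay lower in the knockout culture. Col5a2 was at 9.15 in the knockout culture and 8.23 in the control culture (0.92), below the rule, with 0.24 for another probe. Col1a1 differed by 0.37 and Col1a2 by 0.59. The type I chains were therefore on the upper side of 0 while Col5a1 (-0.61) and Col24a1 (5.75 in the knockout culture and 6.29 in the control culture) were on the lower. The basement membrane chains Col4a1 (14.17 in the knockout culture and 14.22 in the control culture) and Col4a2 (14.14 in the knockout culture and 14.25 in the control culture) hardly differed. Col4a5 was at 11.20 in the knockout culture and 10.68 in the control culture, and neither this gene nor Col4a6, at 8.01 in the knockout culture and 8.04 in the control culture, passed the rule. Col6a1 was at 10.47 in the knockout culture and 9.74 in the control culture (0.73), and Col6a2 at 6.26 in the knockout culture and 5.69 in the control culture (0.58). Both of these type VI chains thus lay on the upper side of 0. On the lower side, Col18a1 was at 8.59 in the knockout culture and 9.42 in the control culture (-0.83). Col7a1 was at 5.76 in the knockout culture and 6.55 in the control culture (-0.79). Col26a1, a little-studied chain, was at 6.93 in the knockout culture and 7.71 in the control culture (-0.78). Col9a2 was at 5.65 in the knockout culture and 6.02 in the control culture (-0.37). Col14a1 was at 5.97 in the knockout culture and 6.39 in the control culture (-0.43), with 0.20 for another probe. None of these passed the rule.

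All 6 macrophage genes of the marker list were detected in both of these cultures, and their summed level was 38021 in the knockout culture and 14765 in the control culture. The epicardial sum was 31129 in the knockout culture and 23316 in the control culture. Most of that difference was Upk3b (14.13 in the knockout culture and 13.20 in the control culture). Upk1b was also higher in the knockout culture, and Tcf21, Aldh1a2 and the undetected Tbx18 were lower. The mean log2 level of the list was 10.32 in the knockout culture and 10.28 in the control culture. The fibroblast and mesenchymal sum was 18914 in the knockout culture and 16867 in the control culture. The fibroblast and mesenchymal list includes the deleted gene Pdgfra (10.49 in the knockout culture and 11.61 in the control culture). The deletion itself thus enters that sum. The part of macrophages in the lower collagen levels was not tested. Against the vehicle culture, the brightest probes of Col3a1 (-1.43), Col8a1 (-1.37) and Col11a1 (-2.23) were still lower in the knockout culture by the rule. Col16a1 (-0.08) and Col8a2 (-0.07) were not, and Col1a2, Col5a2 and Col6a1 were higher by it. The falls of Col16a1 and Col8a2, the smallest of the 5, were close in size to their differences between the untreated cultures (-0.97 and -0.96). The other probe of Col3a1 differed by 0.39 in the knockout culture and -1.30 in the vehicle culture, each against the control culture. That probe was thus higher in the knockout culture than in the vehicle culture. The other probe of Col8a1 differed by -1.39 and -0.77 in the same comparisons, so it was lower in the knockout culture. Without background correction Col8a2 and Col11a1 no longer passed the rule, which left 3 of the 5.

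With PDGF-BB alone, 1 collagen passed the rule at each time: Col7a1. At 12 h 1 of 25 measured collagens rose and 0 fell, where 0.258% of all 9689 measured genes rose and 0.31% fell. At 24 h 1 of 25 rose and 0 fell, where 0.412% of all 9698 measured genes rose and 0.815% fell. Col7a1 was at 6.55 in the control culture, 7.56 after 12 h of PDGF-BB and 7.85 after 24 h, differences of 1.02 and 1.30 from the control culture. These differences are smaller than the 1.79 between the untreated cultures, and against the vehicle culture their sign turns, to -0.78 at 12 h and -0.49 at 24 h. The direction of Col7a1 with PDGF-BB alone therefore rests on which untreated culture is used. Both PDGF-BB arrays share the control culture, so the times are not independent of each other.

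Col18a1 came close to the rule with PDGF-BB. It was at 9.42 in the control culture, 10.39 after 12 h and 10.20 after 24 h (0.97 and 0.78), and another detected probe differed by 0.88 and 0.93. Set against vehicle, it was 1.24 and 1.05 higher, so this gene was higher with PDGF-BB than in both untreated cultures at both times. Col15a1, its relative in basement membranes, was detected on the PDGF-BB arrays alone, at 5.47 after 12 h and 5.37 after 24 h against 4.82 and below detection in the control culture. Col8a2 was at 8.55 after 12 h and 7.97 after 24 h (-0.85 at 24 h). Col24a1 was at 5.47 after 12 h and 5.73 after 24 h (-0.81 and -0.56), and Col26a1 at 7.65 after 12 h and 6.88 after 24 h (-0.82 at 24 h). Col5a2 was at 7.92 after 12 h and 7.57 after 24 h (-0.66 at 24 h). Col17a1 was detected after 12 h (5.87) and not after 24 h. These lay below the rule of size.
Other chains stayed within 1 of the control culture on the log2 scale. Col3a1 was at 9.07 after 12 h and 9.15 after 24 h, Col11a1 at 5.70 and 6.26, Col8a1 at 12.06 and 12.03 and Col16a1 at 12.11 and 11.94. The basement membrane chains were as close. Col4a1 was at 14.21 after 12 h and 14.21 after 24 h, Col4a2 at 14.17 and 14.16, and Col4a6 at 7.83 and 7.88. Col6a1 was at 9.70 after 12 h and 9.59 after 24 h, Col6a2 at 6.04 and 6.13, and Col9a2 at 5.68 and 5.54. Col14a1 was at 6.71 after 12 h and 6.34 after 24 h. The median over the 25 collagens was -0.06 at 12 h and -0.05 at 24 h, against -0.01 at 12 h and -0.02 at 24 h for all measured genes. The summed fibroblast and mesenchymal level was 16867 in the control culture, 12734 at 12 h and 10954 at 24 h, and its part in these values was not tested.

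The 3-factor culture had the most collagens past the rule of the knockout and ligand comparisons: 9 of 24 measured collagens passed the rule, 3 higher and 6 lower than in the vehicle culture. Of all 9178 measured genes 5.32% rose and 5.07% fell. Higher were Col7a1 and the basement membrane chains Col4a3 and Col4a4, and lower were Col3a1, Col24a1, Col8a2, Col6a1, Col6a2 and Col26a1. Type I, type V and the Col4a1 and Col4a2 chains did not pass it. The collagens went in both directions, and their median was -0.09 against -0.004 for all measured genes. In the plot of called collagens the 3-factor bars exceed those of the other comparisons for most of the genes. That plot holds only the 12 genes that passed the rule in a knockout or ligand comparison, 9 of them in the 3-factor culture. The larger 3-factor bars therefore follow in part from how the genes were chosen.

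Col7a1 had the largest rise of the measured collagens. It was at 10.46 in the 3-factor culture and 8.34 in the vehicle culture (2.12), and its other detected probe rose by 1.63. Against the control culture the difference was 3.91. Its level in the 3-factor culture was the highest of the 6 cultures, which ran from 5.76 in the knockout culture. Sox9, a transcription factor of the cartilage marker list, had its lowest culture level in the knockout culture (8.30) and its highest in the 3-factor culture (12.33), with 9.45 in the control culture, 10.57 and 11 with PDGF-BB for 12 h and 24 h and 11.18 in the vehicle culture. The cultures thus stand in the same order for Sox9 and Col7a1, a likeness that was noticed after the values were seen and that describes 6 arrays in 2 array sets. Of the other 5 cartilage markers, Acan was detected in the control culture and the rest in no culture.
Col4a3 and Col4a4, chains of the basement membrane collagen best known from the glomerulus, were detected in the 3-factor culture and on no other array. Col4a3 was at 6.28 in the 3-factor culture, at least 1.83-fold higher than in the vehicle culture, and had values between 4.53 and 4.84 on the other 7 arrays. Col4a4 was at 5.91, at least 1.42-fold higher, with values between 4.44 and 4.76 elsewhere. Both levels are near the lower end of detection, where the lowest detected level on that array was 5.57. Col11a1 was at 7.98 in the 3-factor culture and 7.10 in the vehicle culture (0.88, with 0.56 for another probe), below the rule, and against the control culture it differed by 1.98.

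Of the chains that fell with the 3 factors, Col3a1, Col6a1 and Col6a2 belong to collagens of interstitial matrix. Col3a1 was at 6.80 in the 3-factor culture and 9.47 in the vehicle culture (-2.67), and its other probe fell by 2.60. Col6a1 was at 6.93 against 9.35 in the vehicle culture (-2.42), and its other probe fell by 2.30. Both fell to the lowest level of any culture, and different probes gave nearly the same size. Col6a2 was not detected in the 3-factor culture and was at 5.75 in the vehicle culture, at least 1.14-fold lower. Col8a2 was at 5.75 in the 3-factor culture and 7.86 in the vehicle culture (-2.11). Col24a1 and Col26a1 were not detected in the 3-factor culture, and had levels of 5.78 and 6.09 in the vehicle culture. Col24a1 was thus at least 1.16-fold lower, and Col26a1 at least 1.43-fold. Their other detected probes differed less, by -0.47 and -0.45 for Col24a1 and by -0.05 for Col26a1. Against the control culture, all 9 of these collagens passed the rule in the same direction. Without background correction Col7a1, Col3a1, Col6a1 and Col8a2 still passed it, while the 5 genes that were undetected in the dimmer culture did not.
Others stayed below it. Col1a1 was at 13.38 in the 3-factor culture and 13.63 in the vehicle culture (-0.26), and Col1a2 at 8.64 against 9.51 in the vehicle culture (-0.87). Col5a1 was at 12.83 against 12.54 in the vehicle culture (0.29), and Col5a2 at 7.43 against 7.06 in the vehicle culture (0.37). The other probe of Col5a2 differed by -0.36, and against the control culture Col1a2 was lower by the rule (-1.30). Col4a1 (14.13 in the 3-factor culture, -0.05), Col4a2 (13.85, 0.04), Col4a5 (10.71, 0.21) and Col4a6 (7.55, -0.30) hardly differed. Col8a1 was at 12.17 (-0.12), Col16a1 at 11.50 (0.30), Col18a1 at 9.14 (-0.01) and Col14a1 at 6.19 against 6.59 in the vehicle culture (-0.40). Col9a2 was not detected in the 3-factor culture, at 5.71 in the vehicle culture.

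Marker genes moved strongly between these cultures. The summed fibroblast and mesenchymal level was 1079 in the 3-factor culture and 9355 in the vehicle culture, with the proteoglycan genes Dcn at 9.37 in the 3-factor culture and 12.90 in the vehicle culture and Lum below detection in the 3-factor culture and at 8.93 in the vehicle culture. The epicardial sum was 4045 in the 3-factor culture and 14648 in the vehicle culture, and the macrophage sum 18609 in the 3-factor culture and 9684 in the vehicle culture. The erythroid sum was 112 in the 3-factor culture and 14092 in the vehicle culture. The cartilage sum of 5290 in the 3-factor culture and 2430 in the vehicle culture was that of Sox9 for the most part, the only gene of that list detected in these cultures. Their part in the collagen differences was not tested. Across 10249 genes and both array sets, limma with the untreated cultures as a group of 2 (1 residual degree of freedom) gave 0 genes at an adjusted p under 0.05 for the 3-factor culture, with 745 genes and 11 of 27 collagens at an unadjusted p under 0.05. The spread in this fit comes from 2 untreated cultures in different array sets, with no term for the set and 1 array for the 3 factors, so its p-values do not bear on a difference by treatment. The same limma fit gave 0 genes at the adjusted threshold for the knockout culture (381 genes and 4 collagens at an unadjusted p under 0.05), for PDGF-BB at 12 h (26 genes and 1 collagen) and at 24 h (19 genes and 0 collagens).

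**Figure D3:**
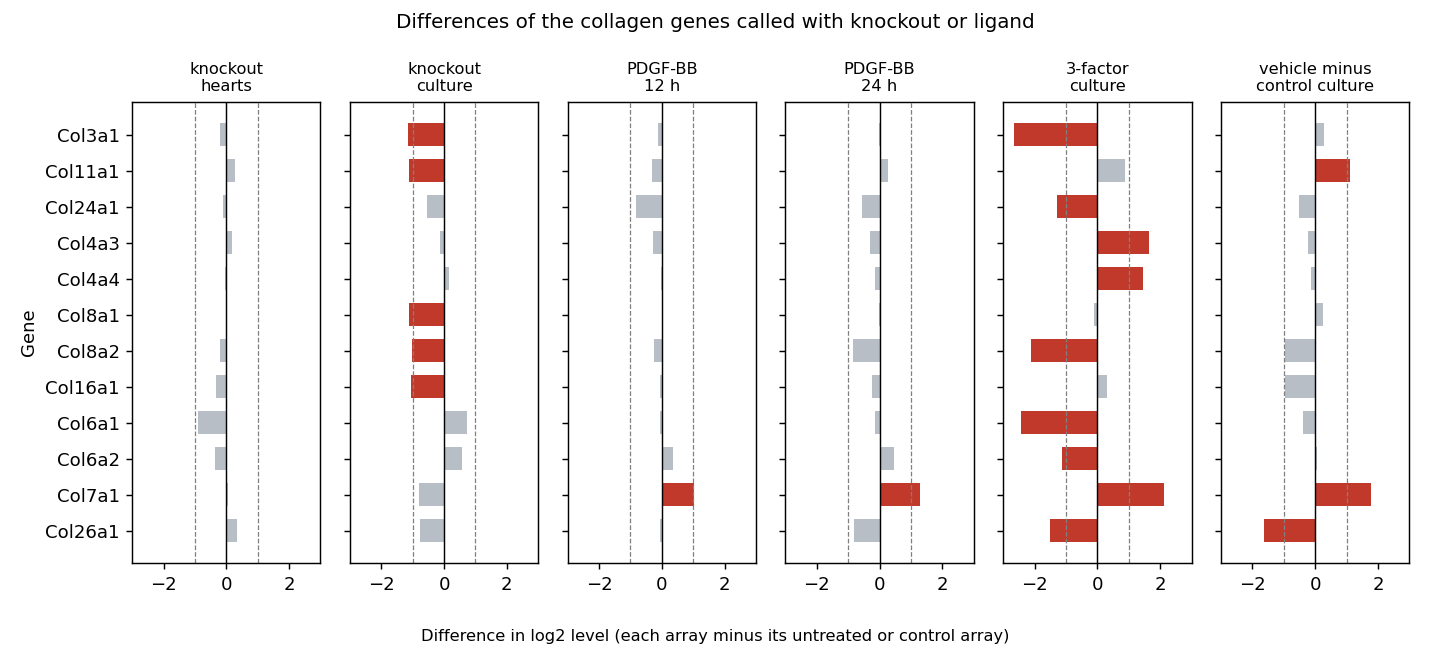
Difference in log2 level (x axis, dashed lines at 1 and -1) of the 12 collagens that passed the rule in a knockout or ligand comparison, with 1 panel per comparison and the untreated cultures in the last panel, red where the rule was passed. Red bars number 0 in the knockout hearts, 5 in the knockout culture, 1 at each PDGF-BB time, 9 in the 3-factor culture and, of these 12 genes, 3 between the untreated cultures.

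Chains that share a molecule did not always move together. Differences of genes undetected on the dimmer array stand here as measured, with their bounds above. Type VIII molecules are built from Col8a1 and Col8a2: in the knockout culture these differed by -1.13 and -1.03, but in the 3-factor culture by -0.12 and -2.11, and in the vehicle culture against the control hearts by 7.14 and 1.76. Of the type VI chains, Col6a3 was not among the 41 genes and was not measured here. Col6a1 and Col6a2 both fell with the 3 factors (-2.42 and -1.13). They had opposite signs in the vehicle culture against the control hearts (0.32 and -1.42). They differed by -0.90 and -0.35 in the knockout hearts, and in the knockout culture by 0.73 and 0.58. Col4a1 and Col4a2, whose promoter windows overlap, had differences close to each other in each comparison, and furthest apart between the untreated cultures (-0.04 and -0.44). Col4a3 and Col4a4 appeared together in the 3-factor culture (1.65 and 1.44).

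**Figure D4:**
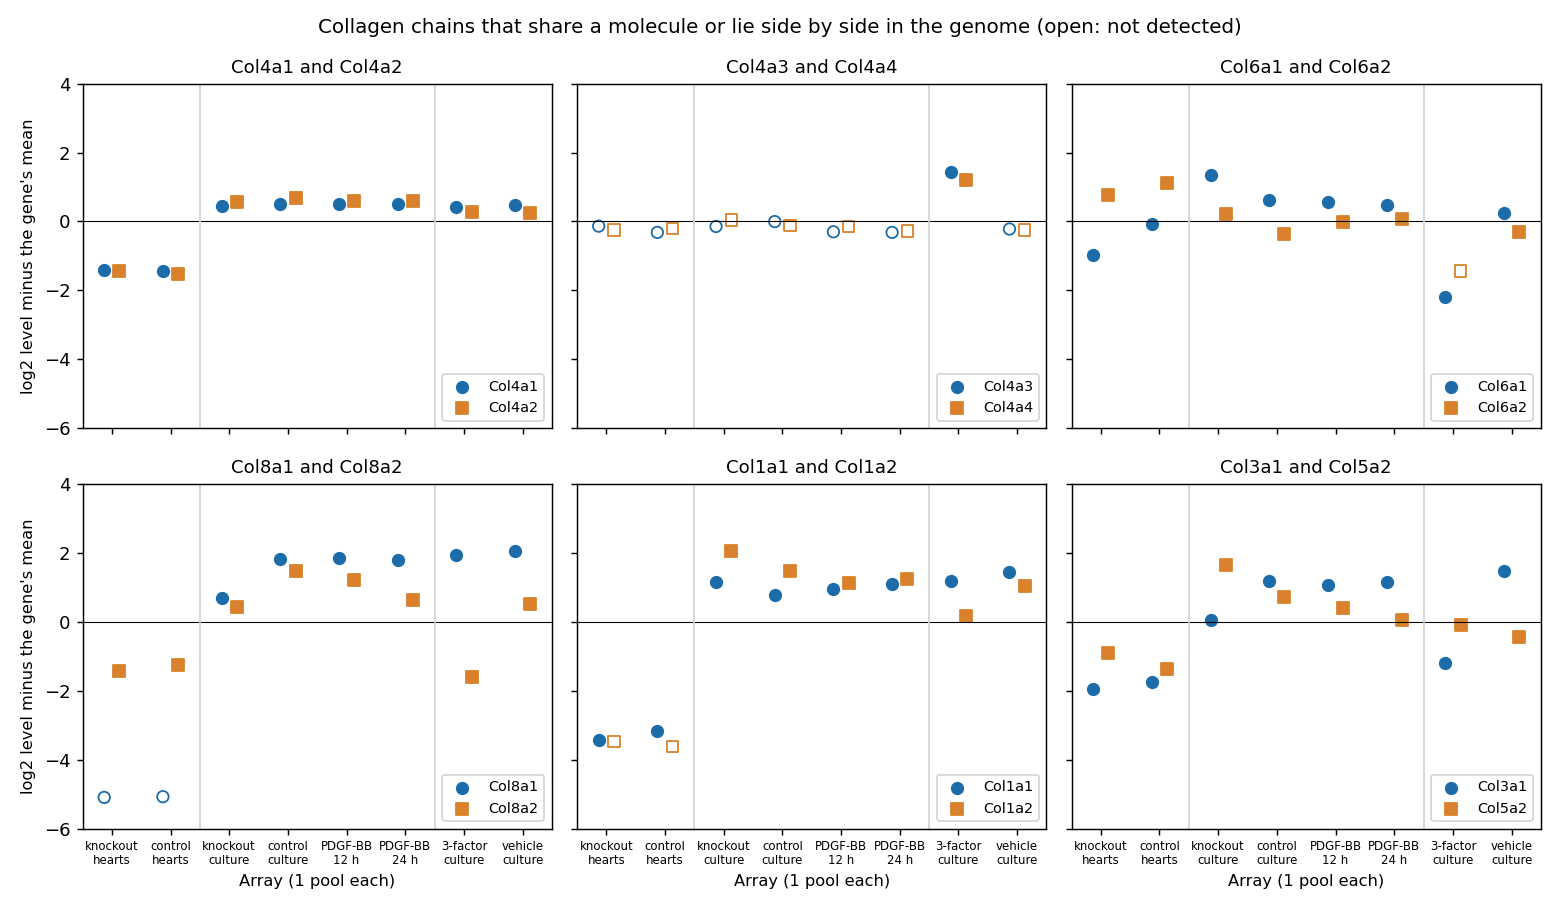
Log2 level minus the gene's own mean over 8 arrays (y axis) for 6 pairs of collagen genes on the 8 arrays (x axis), filled where detected and open where not. Col4a1 and Col4a2 overlap on every array, whereas Col8a1 and Col8a2 separate in the 3-factor culture, where their differences from the vehicle culture were -0.12 and -2.11.

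Fibrils also need enzymes that modify, cleave and crosslink the chains, and cells need receptors to hold them. Of a list of 39 genes for modification and folding, propeptide removal, crosslinking and receptors, 35 had a probe. Of 25 measured in the knockout hearts 0 passed the rule, where 0.202% of all measured genes rose and 0.438% fell. With PDGF-BB 0 of 26 passed at either time, where 0.258% of all measured genes rose and 0.31% fell at 12 h, and 0.412% rose and 0.815% fell at 24 h. In the knockout culture 1 of 26 rose and 2 fell, where 1.89% of all measured genes rose and 2.29% fell. Itga11, a collagen-binding integrin chain of fibroblasts, was at 5.94 in the knockout culture and 7.85 in the control culture (-1.91). Ddr1, a collagen receptor kinase of epithelia, was at 11.03 against 9.55 in the control culture (1.48). P3h2, a prolyl hydroxylase, was at least 1.25-fold lower. Against the vehicle culture, an alternative chosen after seeing the data, Itga11 (-0.27) and Ddr1 (0.64) no longer passed the rule, and P3h2 (-1.81) did.
With the 3 factors 3 of 26 rose and 0 fell, where 5.32% of all measured genes rose and 5.07% fell. Itga11 was at 9.28 in the 3-factor culture and 6.21 in the vehicle culture (3.07). Bmp1, the protease that removes the C-terminal propeptide of fibrillar collagens, was at 12.44 against 10.82 in the vehicle culture (1.62). Pcolce2, which enhances that cleavage, was at 8.50 against 6.15 in the vehicle culture (2.35). Against the control culture these 3 genes still passed the rule, at 1.43 for Itga11, 1.28 for Bmp1 and 3.17 for Pcolce2. Itga11 also differed between the untreated cultures, with 6.21 in the vehicle culture and 7.85 in the control culture (-1.64), and it was the only gene of the 27 measured to pass the rule there. In the vehicle culture against the control hearts 9 of 27 rose and 2 fell, where 16.1% of all measured genes rose and 15% fell. Lox, the crosslinking enzyme, was at 13.62 in the vehicle culture and 8.07 in the control hearts (5.55), and Serpinh1, the collagen chaperone, at 14.91 against 13.87 in the control hearts (1.03). With the control culture in place of the vehicle culture Serpinh1 no longer passed the rule (0.63), nor did Pcolce2 (0.78) or P3h4 (0.36), a further member of the list. P3h2 was lower (6.36 in the vehicle culture against 8.68 in the control hearts), as was Colgalt2, a collagen glycosyltransferase, by at least 2.04-fold. The list's median difference was 0.82 there (0.70 with bounds), 0.18 with the 3 factors and -0.17 in the knockout culture. Between the untreated cultures it was 0.40, with 19 of 27 genes above 0.

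Several collagens have more than 1 probe, and the additional probes check the brightest. Over all comparisons 93 pairs of differences, from 19 genes, could be set side by side, and 75 had the same sign. Where the brightest probe differed by at least 1, 20 of 23 had the same sign. The exceptions were Col26a1 in the vehicle culture against the control hearts and against the control culture, and Col3a1 in the knockout culture. With the 3 factors all 5 called genes with another detected probe had the same sign, and 3 of them passed 1 in both. Col3a1 also disagreed between the untreated cultures, with 0.29 for the brightest probe and -1.30 for the other.

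**Figure D5:**
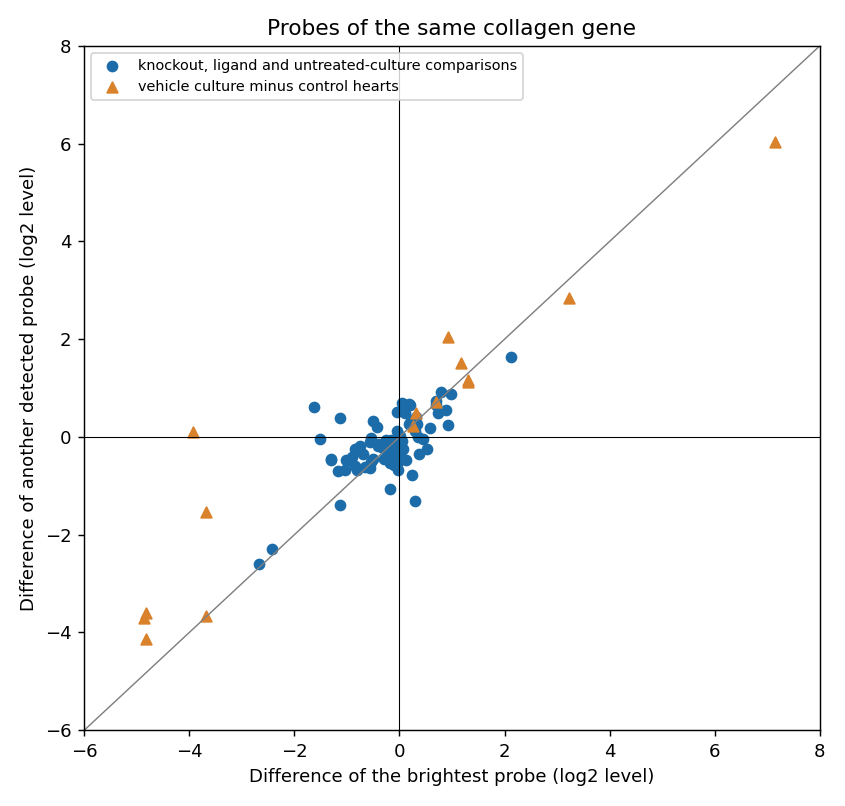
Difference of another detected probe (y axis) against the difference of the brightest probe of the same collagen gene (x axis), both in log2 level, over 93 pairs in all comparisons; triangles are the vehicle culture minus the control hearts and the diagonal marks equality. Most points with large differences lie near the diagonal, and Col26a1 (-3.93 against 0.10) lies far from it.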

How the data were processed

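RNA from 2 pools of hearts and 6 pools of epicardial cultures was hybridized to Illumina arrays, 1 array per pool. Per the labels, the authors deposited, for each of 45281 probes, a detection p-value and an intensity that had not been normalized (BeadStudio 3.3, per the submitters' processing notes), and a table of processed intensities. The lowest deposited intensity on each array was above 0, between 29.6 and 32.9, so background had not been subtracted. The processed intensities had the same highest value within each of 2 sets of 4 arrays (26244 and 48884). Quantile normalization of each set apart would give this. They were used as an alternative.

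Reported levels were computed from the non-normalized intensities with limma 3.58.1 in R 4.3.3 (neqc, with background from the detection p-values, an offset of 16 and quantile normalization over 8 arrays). The offset makes differences of dim genes smaller. Summaries and figures were made in Python 3.11.15 (matplotlib 3.10.9, pandas 2.3.3, numpy 2.4.6). A single symbol was given for 34885 probes, several for 18 and none for 10378. Names come from an array annotation that can be old. For genes that no probe detected on the dimmer array, a bound ("at least") was computed from the brighter level against the lowest detected level there, or the gene's own level if higher. The method was tested on simulated data. The planted differences were larger than the rule, in genes set as detected on both arrays. That test therefore does not cover differences close to the rule or genes undetected on the dimmer array.

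Groups followed the labels. For the control and knockout cultures the source label says hearts, but titles and design text call them cultures, which was followed. The number of arrays limits the precision. The only tests were limma's moderated tests, in which the untreated cultures formed a group of 2, adjusted by Benjamini-Hochberg. Every family member could be named: those that passed the rule in any comparison and a panel of main chains have their level on each array that detected them, other detected members a range or count. Panel genes with no named probe are not analysed here. Cell type lists were cardiomyocyte, epicardial, endothelial, macrophage, erythroid, smooth muscle, fibroblast and cartilage. The smooth muscle sum was 31458 in the knockout culture and 40841 in the control culture, and 29735 in the 3-factor culture and 34796 in the vehicle culture. Members and lists were chosen with earlier results of these data known. The alternatives were no background correction, median centring, the authors' processed intensities, detection on both arrays, the mean of all detected probes and the other untreated culture, which was added for the synthesis genes after seeing the data.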

Additional observations from a re-analysis of the deposited data

How the results depend on the processing

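No paired analysis was possible because each group had 1 array. The 40 calls of single collagens were each repeated under up to 6 alternatives, 235 times in all: 173 kept the call, 60 kept the direction but lost it, and 2 reversed. The reversed values were those of Col7a1 with PDGF-BB against the vehicle culture, -0.78 at 12 h and -0.49 at 24 h. Counts of collagens also moved, mostly where genes near the detection limit lost their calls. In the knockout culture 5 lower became 3 without background correction, 3 with the authors' intensities and 2 with the mean of detected probes, and 0 higher became 3 against the vehicle culture. With PDGF-BB at 12 h, 1 higher became 0 without background correction, with median centring, with the authors' intensities and with the mean of probes, and 3 against the vehicle culture, while 0 lower became 1 with median centring and 1 against the vehicle culture. At 24 h, 1 higher became 0 without background correction and with the mean of probes, and 0 lower became 2 with median centring. With the 3 factors, 3 higher became 1, and 6 lower became 3, without background correction, with the authors' intensities and where both arrays had to detect the gene, and 6 lower also became 3 with the mean of probes. Between the untreated cultures, 2 higher became 1 without background correction, with median centring, with the authors' intensities and with the mean of probes, and 3 lower became 1, 5 and 0 without background correction, with median centring and with the mean of probes. In the vehicle culture against the control hearts 13 higher became 8 where both arrays had to detect the gene. In the hearts no collagen passed under any alternative. The limma count for the 3-factor culture was 31 in place of 0 with genes detected on all 6 cultures, where fewer genes are tested; with 1 array against 2 cultures of different sets, neither count bears on a difference by treatment. Other causes were not tested. Median centring moved the median of all genes to -0.11 in the knockout culture, -0.26 after 12 h and -0.31 after 24 h of PDGF-BB, -0.49 between the untreated cultures (-0.36 with the authors' intensities) and 0.11 between vehicle culture and hearts. Calls over all genes then split 148 higher and 349 lower in the knockout culture (185 and 224 in the reported setting), 17 and 121 at 12 h (25 and 30), 21 and 310 at 24 h (40 and 79) and 105 and 1906 between the untreated cultures (329 and 716). In the hearts the split was 7 higher and 40 lower (18 and 39), and with the authors' intensities it was 33 and 1051 between the untreated cultures. Signal over background limits the precision: detected probes had a median intensity of 5.05 to 5.98 times the background.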
